A study of Mus musculus with 150 samples.

Results

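The extracellular matrix genes other than collagens described here are Eln, Lox, Fn1, Sparc, Fbn1, Spon2, Postn and Timp1. They were chosen by name, with earlier results of these data known. The probe sets used are those that the array annotation assigns to these 8 symbols. Of the 8 genes, 7 have a listed probe set among the 17097 genes named on the array, and all 7 passed the filter on dim genes that left 15695 genes for testing. Fbn1 is not analysed here. Where a gene has several probe sets (2 for Eln, Sparc and Spon2, 3 for Lox), the brightest on average across the 150 arrays was used.

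Whole lung RNA was taken from 150 male adult mice that breathed air or 120 ppm styrene, an aromatic solvent, and each mouse was measured on 1 Affymetrix HT MG-430 PM array. Samples are labelled with 26, 52, 78 or 104 weeks of exposure, while the treatment text of the same labels speaks of 1 or 4 weeks of exposures, 6 hours a day and 5 days a week. The week on each sample's own label is used here. Mice were killed in the morning after the last exposure.

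The 4 kinds of mice are C57BL/6 wild type (WT, 31 mice), C57BL/6 CYP2F2(-/-) knock-out (KO, 39 mice), C57BL/6 CYP2F2(-/-) that carry the transgene labelled 2F1,SA13,2B6 (TG, 38 mice), and the outbred stock CD-1 (42 mice). CYP2F2 is a lung cytochrome P450 that oxidises styrene, and TG mice lack it as KO mice do. The labels do not name the promoter that drives the transgene. Each strain, week and dose is 1 group of 2 to 10 mice, 31 groups in all, and an air group of WT mice at 26 weeks is not analysed here. Labels of 10 mice at 104 weeks note tumours, and tumour tissue was not assayed apart from the rest of the lung.

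Elastic fibres let the lung recoil after each breath. Elastin, the product of Eln, is secreted as a soluble precursor, laid onto microfibrils of fibrillin (Fbn1) and cross-linked by lysyl oxidase (Lox), which also cross-links collagen. Fibronectin (Fn1) is an adhesive glycoprotein that integrins bind. Sparc, periostin (Postn) and spondin 2 (Spon2) are matricellular proteins, which are secreted into the matrix and modulate how cells attach and respond to it. Timp1 inhibits the matrix metalloproteinases that degrade these fibres.

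Markers of lung were present in every library. All 9 measured markers of lung epithelium lay above the filter level on every array, with surfactant protein C (Sftpc) at a mean log2 intensity of 13.8 and a lowest value of 13.65. Of 11 cartilage markers, Acan, Col9a2 and Matn1 lay under the filter level on all 150 arrays and 7 others on 56 to 137 arrays, while Chad averaged 8.20 and was above it on every array. Heart muscle markers were present too and varied widely between mice, such as Myl7 from 4.27 to 11.23 and Actc1 from 6.81 to 11.07, and their part in the results was not tested. The probe set of Cyp2f2 averaged 12.18 in KO and 12.12 in TG mice, against 13.31 in WT and 13.26 in CD-1 mice, so it was lower in both CYP2F2(-/-) lines but still bright. Arrays were run on plates that coincide with groups: at 104 weeks air arrays were on plate 3 and styrene arrays on plate 4 (2 KO and 2 TG styrene arrays on plate 3 or 4), so that dose and plate cannot be told apart there. At 78 weeks all KO and TG styrene arrays and 4 of 5 WT styrene arrays were on plate 2, which the model carries as a term. That term rests on groups split between plates 1 and 2: WT styrene at 78, CD-1 styrene at 26 and CD-1 air at 52 weeks. In each of these, 1 array lay apart from the others. Dose and plate coincide in KO and TG mice at 78 weeks, and the term separates them only as far as these few arrays allow. The array farthest from its group was replicate 3 of the CD-1 air mice at 104 weeks, with a root mean square deviation of 0.686 over genes.

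Promoter windows of 250 bases before the annotated start were found in RefSeq (GRCm38.p6) for 3 of the 7 measured genes. These are the measured genes for which a window was listed, and they were not chosen by behaviour. Postn differed between doses at 104 weeks, Timp1 between weeks in air, and Sparc passed no test. Postn has 2 listed windows, and the other is not shown. Each window shown is written 5′ to 3′ along the gene's own strand and ends at the base before the start. Capitals mark the matches of the motifs searched on both strands, so a motif on the other strand appears as its reverse complement. The Postn window lies at chr3:54359017-54359266 (plus strand), the Timp1 window at chrX:20869916-20870165 (plus strand) and the Sparc window at chr11:55420081-55420330 (minus strand).
Postn: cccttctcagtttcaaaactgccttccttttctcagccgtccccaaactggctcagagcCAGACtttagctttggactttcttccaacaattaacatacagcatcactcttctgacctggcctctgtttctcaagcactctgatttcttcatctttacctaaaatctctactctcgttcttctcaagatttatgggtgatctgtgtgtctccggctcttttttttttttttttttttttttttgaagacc
Timp1: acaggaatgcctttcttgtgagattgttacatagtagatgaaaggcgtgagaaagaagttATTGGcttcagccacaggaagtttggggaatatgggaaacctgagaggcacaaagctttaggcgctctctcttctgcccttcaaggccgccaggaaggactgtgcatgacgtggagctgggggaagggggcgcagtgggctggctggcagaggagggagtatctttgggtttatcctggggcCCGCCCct
Sparc: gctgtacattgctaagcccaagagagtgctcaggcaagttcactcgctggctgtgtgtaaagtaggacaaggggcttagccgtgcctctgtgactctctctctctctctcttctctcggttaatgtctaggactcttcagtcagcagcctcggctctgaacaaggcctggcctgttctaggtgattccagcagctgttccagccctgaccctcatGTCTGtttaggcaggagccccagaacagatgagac

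Of the 6 motifs searched, 3 had a match, and no match overlapped another. The SMAD element, CAGAC, was found once in Postn, at bases -191 to -187 from the start, and once in Sparc, at bases -35 to -31, and it is present in 42.2% of all 32851 windows of this length. Timp1 held 1 CCAAT box, spelled CCAAT, at bases -190 to -186, a motif present in 33.8% of windows. It also held 1 GC box, spelled GGGCGG, at bases -8 to -3, present in 32.7% of windows. The TATA box, searched as TATAAA and present in 12.4% of windows, was not found in these 3 windows. The same held for the E-box, searched as CACGTG (6.02% of windows), and for the AP-1 site, searched as TGANTCA (6.75% of windows). GC content was 54.4% in the Timp1 window, 54% in that of Sparc and 40.4% in that of Postn.

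Values are log2 intensities as deposited, so a difference of 1 is a doubling, and the level of one gene is not set against that of another. The 7 genes differed in how far their group means spread. Spon2 had the widest spread of the 7, from 4.64 in KO styrene mice at 104 weeks to 7.32 in TG air mice at 26 weeks, with a pooled standard deviation (SD) within groups of 0.576. Lox ran from 6.15 in WT styrene mice at 104 weeks to 8.43 in CD-1 air mice at 52 weeks (SD 0.470).

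Postn ran from 6.78 in WT styrene mice at 104 weeks to 8.71 in TG air mice at 78 weeks (SD 0.586). Group means of Timp1 lay between 5.64, in WT air mice at 78 weeks, and 7.24, in TG air mice at 52 weeks (SD 0.495). Those of Eln lay between 5.98 in WT air mice at 78 weeks and 7.13 in CD-1 air mice at 26 weeks (SD 0.346). Fn1 lay between 9.65 in WT air mice at 52 weeks and 10.58 in CD-1 air mice at 104 weeks (SD 0.233). Sparc had the narrowest spread of the 7, 12.15 to 12.53 (SD 0.127).

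The question of the styrene comparisons is whether exposed lungs differed from lungs of the same strain and week in air. Differences were tested with limma over all 15695 genes, and a gene was called when its Benjamini-Hochberg adjusted p was under 0.05. Among 105 tests (7 genes in 15 comparisons) 9 were called, 8 lower and 1 higher in styrene. They fell into 2 settings: Spon2 and Eln in CD-1 mice at 26 weeks, and Lox, Postn and Timp1 at 104 weeks. With the plate 2 term in the model, none of the 7 genes was called in the other comparisons up to 78 weeks.

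These counts stand beside the share of all genes called in the same comparison. In WT mice it was 0.401% at 52 weeks, 0.00637% at 78 weeks and 48% at 104 weeks. In KO mice it was 0% at 26 weeks, 0.0127% at 52 weeks, 0% at 78 weeks and 39.4% at 104 weeks. In TG mice it was 0% at 26 weeks, 0.0127% at 52 weeks, 0.191% at 78 weeks and 0% at 104 weeks. In CD-1 mice it was 0.65% at 26 weeks, 0.0701% at 52 weeks, 0.121% at 78 weeks and 63.6% at 104 weeks. The calls at 26 weeks were thus made where few genes were called, and those at 104 weeks where a large part of the array differed.

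**Figure D1:**
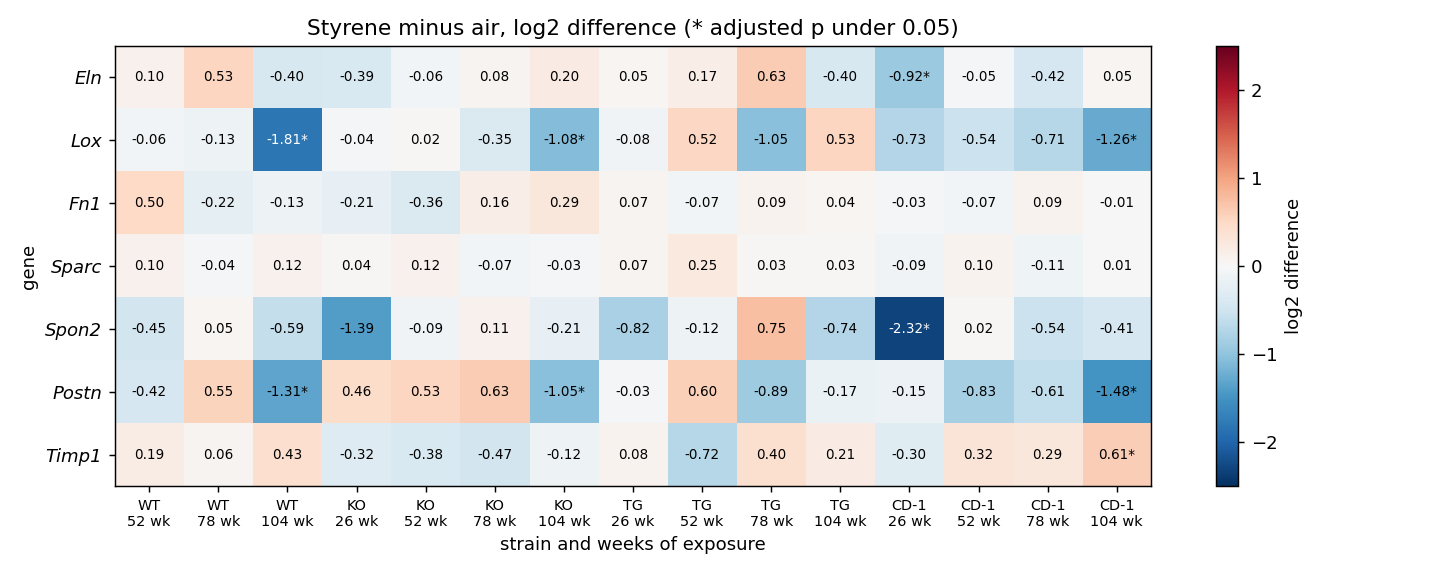
Log2 difference, styrene minus air, of the 7 measured genes (rows) in 15 comparisons of strain and weeks of exposure (columns), from the model with all groups. Colour gives the difference and asterisks mark an adjusted p under 0.05: Spon2 (-2.32) and Eln (-0.92) in CD-1 mice at 26 weeks, and Lox, Postn and Timp1 at 104 weeks.

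Spon2, which codes for a secreted protein of the spondin family with roles in innate immune recognition, was the gene of the set with the largest styrene difference. In CD-1 mice at 26 weeks its levels in air were 7.07, 7.32, 7.04, 6.89 and 7.28. In the styrene mice they were 5.54, 4.13, 4.13, 5.05 and 4.71. Every styrene mouse lay below every air mouse, and the highest styrene value, 5.54, was far under the lowest air value, 6.89. The difference was -2.32 ± 0.37 (limma, estimate ± standard error, n = 5 and 5, adjusted p = 8.06e-06), 4.99-fold. The second styrene mouse was on plate 2, and without it the difference was -2.26.

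Eln differed in the same mice. Its levels in CD-1 air mice at 26 weeks were 7.24, 6.99, 7.26, 6.79 and 7.36, and in styrene mice 6.06, 5.94, 5.99, 6.18 and 6.63. The groups did not overlap, although the highest styrene mouse (6.63) came close to the lowest air mouse (6.79). The difference was -0.92 ± 0.22 (adjusted p = 0.0155, limma). The call was lost when CD-1 mice were fitted apart from C57BL/6 (adjusted p = 0.0893), without replicate 5 of the air mice (0.0605) or without replicate 3 of the styrene mice (0.0745). Over all genes, 1.95% had groups that did not overlap in this comparison, and Spon2 and Eln were 2 of the 7.

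Probe sets of one gene differed in size. The second Eln probe set gave -0.47, and the second Spon2 probe set, which lies near the filter level, gave -0.22. With the mean of the probe sets in place of the brightest, the differences were -1.27 for Spon2 (adjusted p = 5.76e-05) and -0.69 for Eln (adjusted p = 0.0155).

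Among other genes of elastic fibre assembly, 2 of 17 tested were called in this comparison, both lower: Fbn2 (fibrillin 2, a microfibril protein) by -0.68 and Loxl1 (an oxidase that cross-links elastin) by -0.80. The median of the list was -0.11, beside 0.00 over all genes. Of 17 matrix proteases and inhibitors, only Mmp14, a membrane-bound metalloproteinase, was called, at -0.71 (adjusted p = 0.0489). None of 13 collagens, 19 matricellular and proteoglycan genes, 12 integrins or 14 genes of TGF-beta signalling was called. Summed as a mean of 7 genes, smooth muscle and pericyte markers ranged from 6.98 to 7.61 in air and from 6.54 to 7.05 in styrene, with a median difference of -0.51 and no marker called. In whole lung, fewer cells of a type and less RNA per cell cannot be told apart, and the part of these cells in the Eln and Spon2 differences was not tested.

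Core clock genes moved with Spon2 in these mice. Arntl (Bmal1, a transcription factor at the core of the circadian clock) had the within-group residuals most like those of Spon2 over all 15695 genes, with r = 0.752 over 150 arrays. Npas2, a partner of Arntl, followed at 0.729, and Rasl11a, a small GTPase gene, at 0.689. Expressed as deviations from group means, r between Spon2 and Arntl was 0.802 over the 71 air arrays and 0.71 over the 79 styrene arrays. These points share their arrays, so anything that sets an array's quality enters both values.

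In CD-1 mice at 26 weeks Arntl was 7.47, 7.41, 6.88, 6.76 and 6.77 in air and 4.64, 3.56, 3.69, 4.12 and 3.89 in styrene. Every styrene mouse was well below every air mouse, and the difference was -2.98 (adjusted p = 1.49e-06, limma). Npas2 differed by -2.70 (adjusted p = 0.000101). With the level of Arntl as a covariate, a choice made after the data were seen, the difference was -0.46 for Spon2 (adjusted p = 0.996) and -0.18 for Eln (adjusted p = 1). Arntl was picked for its likeness to Spon2 in these same arrays, and its values do not overlap between the doses here. The covariate therefore takes up the dose difference itself, and nothing is read from the lost calls. The labels give no hour of death for single mice.

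**Figure D2:**
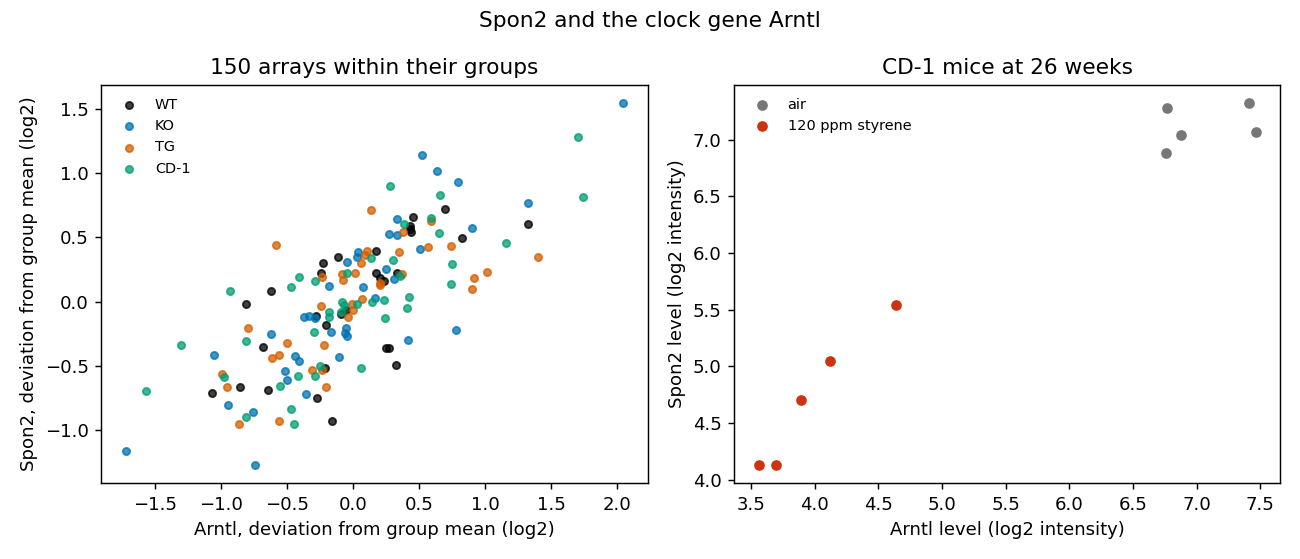
Left, deviations of Spon2 from its group mean against those of Arntl, 1 point per array for 150 arrays coloured by strain (both axes log2). Right, Spon2 against Arntl levels (log2 intensity) in CD-1 mice at 26 weeks, where the 5 styrene mice reach 5.54 in Spon2 at most and the 5 air mice lie at 6.89 or above.

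In the other strains at 26 weeks Spon2 was lower in styrene by less. KO air mice had 7.42, 7.22, 7.36, 6.87 and 6.68 against 6.65, 5.18, 5.30 and 5.75 in styrene. The highest styrene value was just under the lowest air value, and 2.03% of all genes had groups that did not overlap in this comparison. The Spon2 difference of -1.39 was not called (limma, adjusted p = 0.978). TG air mice had 8.03, 7.34, 7.26 and 6.66 against 6.80, 6.63, 6.72, 5.97 and 6.39, which overlap, and the difference was -0.82. No WT air mice at 26 weeks stand beside the WT styrene values of 6.43, 6.17, 5.90, 5.46 and 5.16.

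The difference between strains in this effect was itself tested. The Spon2 effect of TG minus CD-1 mice was 1.5 (95% interval 0.46 to 2.54, adjusted p = 0.943), and that of KO minus CD-1 mice was 0.93 (-0.12 to 1.97, adjusted p = 1). For Eln, TG minus CD-1 was 0.97 (0.34 to 1.60, adjusted p = 0.785). The shares of all genes called in these contrasts were 0.0191% for TG minus CD-1, 0.0255% for KO minus CD-1 and 0% for KO minus TG. No difference between strains was called, and the intervals leave room for large ones.

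Averaged over the weeks to 78, Spon2 was lower in CD-1 styrene mice by -0.95 ± 0.23 (adjusted p = 0.0181, limma), where 0.835% of genes were called. At 52 weeks the CD-1 values were 6.51, 6.13, 5.90 and 5.07 in air and 6.05, 6.15 and 5.91 in styrene. At 78 weeks they were 5.65, 4.61, 5.48, 5.72 and 4.50 in air and 5.47, 3.75 and 4.74 in styrene. Both pairs of groups overlap, so the averaged difference came mainly from 26 weeks. It was no longer called with the mean of the probe sets (-0.49, adjusted p = 0.0633), with CD-1 mice fitted apart (adjusted p = 0.0783), with Arntl as a covariate (-0.065), without replicate 3 of the CD-1 air mice at 52 weeks (0.0615) or without replicate 2 of the CD-1 styrene mice at 78 weeks (0.107).

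No other gene of the set was called in an average to 78 weeks, in any of the 4 strains. Lox and Eln in CD-1 mice stood at -0.66 (adjusted p = 0.0712) and -0.46 (adjusted p = 0.0922). The share of all genes called was 0.0382% in WT mice, 0% in KO mice and 0% in TG mice. Averaged over all weeks that a pair of strains shares, 104 included, no difference in effect between strains was called for the 7 genes, with 0.0892% of all genes called for WT minus KO, 0.0701% for CD-1 minus WT and 0% for TG minus KO. For Spon2, the 95% interval of CD-1 minus WT, over 52 to 104 weeks, ran from -0.67 to 0.70.

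At 104 weeks Lox and Postn were called lower in the styrene arrays of WT, KO and CD-1 mice, and neither was called in TG mice. Air arrays were on plate 3 and styrene arrays on plate 4, apart from 2 of 5 KO and 2 of 6 TG styrene arrays on plate 3 or 4, so dose and plate cannot be told apart in these differences. The calls stand among 48% of all genes called in WT, 39.4% in KO and 63.6% in CD-1 mice, while 0% were called in TG mice.

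Lox, the cross-linking enzyme, was 8.16, 7.81, 7.73 and 8.15 in WT air mice at 104 weeks. In WT styrene mice it was 6.26, 6.01, 6.11, 6.35 and 6.05. The groups were well apart, with a difference of -1.81 ± 0.31 (adjusted p = 2.15e-06, limma), 3.50-fold, while 37.4% of all genes did not overlap in this comparison. KO air mice had a lowest value of 6.98, a median of 7.43 and a highest of 7.73 (n = 6), against 5.77, 6.69, 6.20, 5.68 and 7.29 in styrene. Here 1 styrene mouse lay within the air range. Its array is 1 of the 2 KO styrene arrays on plate 3 or 4, and the other of these had 5.68. The difference was -1.08 ± 0.28 (adjusted p = 0.00161). CD-1 air mice had 7.60, 7.91 and 8.78 as lowest, median and highest (n = 7), and CD-1 styrene mice 5.69, 6.78 and 7.79 (n = 10). The ranges overlapped at their ends, with a difference of -1.26 ± 0.23 (adjusted p = 1.26e-06).

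In TG mice Lox went the other way without being called. TG air values were 7.45, 7.18, 7.40, 6.56 and 7.85, and the styrene values had a lowest of 7.34, a median of 7.70 and a highest of 8.79 (n = 6). The difference was 0.53 (adjusted p = 0.815), and the ranges overlap. The second Lox probe set gave -1.17 in WT, -0.65 in KO and -0.94 in CD-1 mice, while the remaining one, which is dim, stayed between -0.08 and -0.01.

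Postn, a matricellular protein that supports collagen assembly and lysyl oxidase activation, had much the same order. In WT air mice it was 8.26, 8.77, 7.61 and 7.74, and in WT styrene mice 6.60, 7.20, 6.24, 7.12 and 6.75. No styrene mouse reached the air range, as in 37.4% of all genes whose groups did not overlap, and the difference was -1.31 ± 0.38 (adjusted p = 0.00289, limma). KO air mice had 7.38, 8.31 and 9.11 as lowest, median and highest (n = 6), against 6.82, 7.21, 6.29, 6.76 and 8.61 in styrene. The last styrene mouse, which was also the highest in Lox, lay above the air median. Its array is 1 of the 2 KO styrene arrays on plate 3 or 4, and the other of these had 6.76. The difference was -1.05 ± 0.34 (adjusted p = 0.0113). Without replicate 3 of the KO styrene mice it was -0.84 and no longer called (adjusted p = 0.0713).

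CD-1 air mice had 7.63, 8.47 and 9.17 as lowest, median and highest Postn values, and CD-1 styrene mice 6.20, 6.76 and 8.29. Only the top of the styrene range reached into the air range, and the difference was -1.48 ± 0.28 (adjusted p = 2.86e-06, limma). TG mice had 9.13, 7.38, 8.83, 8.29 and 8.27 in air and 7.61, 8.12 and 9.37 as lowest, median and highest in styrene, which overlap throughout, with a difference of -0.17.

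**Figure D3:**
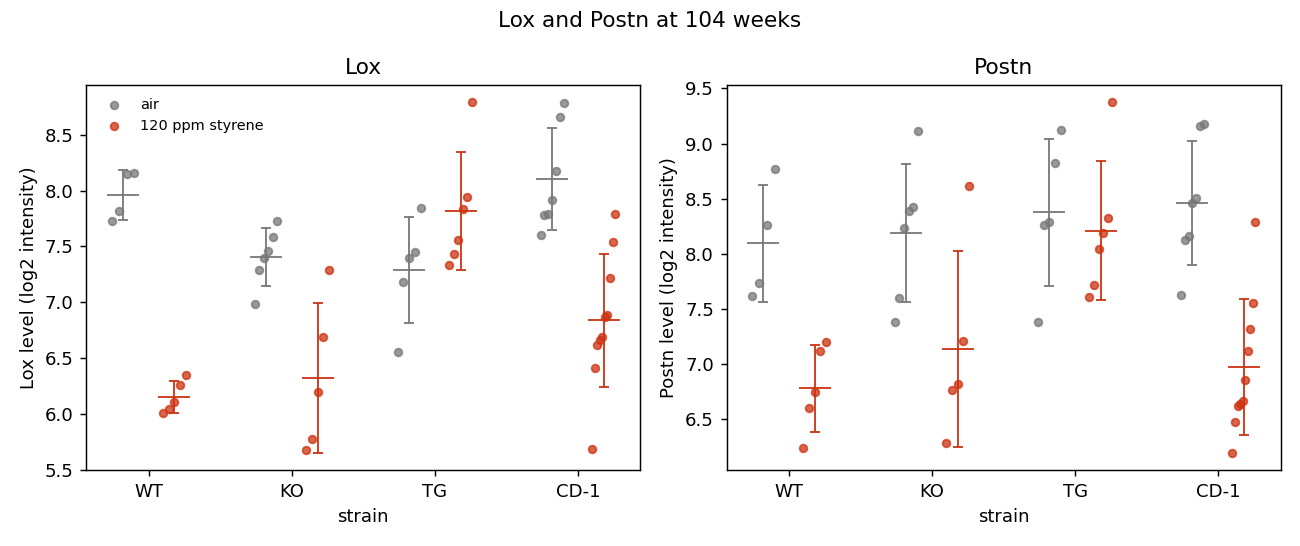
Lox (left) and Postn (right) at 104 weeks in lungs of 4 strains, in log2 intensity. Points are mice, dashes group means and bars SD; the styrene means lie below the air means in WT, KO and CD-1 mice, while in TG mice the ranges overlap.

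The 104-week effect was compared between strains within the model, as a contrast added after the data were seen. For Lox, WT minus TG was -2.34 (95% interval -3.17 to -1.504, adjusted p = 1.47e-05), where 37.3% of all genes were called. KO minus TG was -1.61 (-2.40 to -0.82, adjusted p = 0.00232), among 25.1% of genes called. TG minus CD-1 was 1.79 (1.07 to 2.51, adjusted p = 3.95e-05), among 46% of genes called. Thus the Lox effect of TG mice differed from that of each other strain, as did at least 25.1% of all genes in each of these contrasts.

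For Postn, TG minus CD-1 was 1.32 (0.44 to 2.20, adjusted p = 0.0111), and without replicate 2 of the TG air mice it was 1.07 (adjusted p = 0.0527). WT minus TG was -1.15 (-2.17 to -0.13, adjusted p = 0.0679) and KO minus TG -0.88 (-1.85 to 0.08, adjusted p = 0.167). When the 2 KO styrene arrays of open plate were left out, KO minus TG was -1.25 (adjusted p = 0.0473). Without the 2 TG styrene arrays of open plate, Eln was called for KO minus TG (0.87, limma, adjusted p = 0.0307). It was also called for TG minus CD-1 (-0.72, adjusted p = 0.0291). With all arrays these Eln contrasts were 0.60 and -0.45 and not called. Among WT, KO and CD-1 mice no difference in effect was called for the set, with 0.0127% of all genes called for WT minus KO, 0.0382% for WT minus CD-1 and 1.28% for KO minus CD-1.

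The main axis of differences between mice of one group moved with both genes. It is the first principal component of residuals over 102 arrays up to 78 weeks, built without the 7 genes, and held 22.4% of the within-group variance. Its correlation over 150 arrays within groups was 0.879 with Postn, 0.592 with Lox and -0.333 with Timp1. At 104 weeks its group mean was 0.71 in air and -1.77 in styrene in WT mice, 0.48 and -1.41 in KO mice, 0.80 and -1.46 in CD-1 mice, and 0.21 and 0.56 in TG mice. With the axis as a covariate the Lox differences were -0.75 in WT (adjusted p = 0.144), -0.28 in KO (0.756) and -0.30 in CD-1 mice (0.333). Those of Postn turned to 0.60 in WT, 0.41 in KO and 0.26 in CD-1 mice, and none was called. The axis itself differed between doses in these strains. In WT mice it ran from 0.469 to 1.07 in air and from -2.26 to -1.35 in styrene. The covariate thus takes up the dose and plate difference, and changed calls do not show whether Lox or Postn differ. The same covariate left Lox at -1.14 for WT minus TG, -0.66 for KO minus TG and 0.69 for TG minus CD-1, none of them called. Postn for TG minus CD-1 turned from 1.32 to -0.69 with this covariate and was called in that opposite direction (adjusted p = 0.0302).

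In the same 104-week comparisons, of 17 genes of elastic fibre assembly, 8 were higher and 0 lower in CD-1 styrene mice, 4 higher and 1 lower in WT, and 5 higher and 1 lower in KO mice. The list medians were 0.27, 0.24 and 0.25, beside all-gene medians of 0.16, 0.12 and 0.11. For these and the lists that follow, the share of all genes called was 63.6% in CD-1, 48% in WT and 39.4% in KO mice, and nothing is read from the counts beyond it. In CD-1 mice Mfap5 (a microfibril protein) was higher by 0.72, Ltbp3 (a latent TGF-beta binding protein) by 0.48 and Fbln5 (fibulin 5, which guides elastin deposition) by 0.47. In WT mice Emilin1, an elastic fibre glycoprotein, was higher by 0.66, and in KO mice by 0.78.

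Matricellular and proteoglycan genes were mixed, with 2 of 19 higher and 4 lower in WT, 4 and 3 in KO and 7 and 2 in CD-1 mice. Ogn, a small leucine-rich proteoglycan, was lower by -1.07 in WT and -1.10 in CD-1 mice, and Sparcl1, a relative of Sparc, by -0.67 and -0.76. Vtn, which codes for vitronectin, was higher by 0.83 in CD-1 and 0.71 in KO mice. Of 17 matrix proteases and inhibitors 3 were lower in WT and 2 in KO mice, with none higher, while 4 rose and 4 fell in CD-1 mice. Adamts5, an aggrecan-cleaving protease, was lower by -1.39 in WT mice and -0.75 in KO mice.

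Of 13 collagens, 4 were higher and 1 lower in WT, 4 and 0 in KO and 5 and 1 in CD-1 mice, and Col6a1 was higher by 0.60 in WT, 0.40 in KO and 0.60 in CD-1 mice. Of 12 integrin receptors 2 were higher and 5 lower in WT, 3 and 5 in KO and 3 and 6 in CD-1 mice, with list medians of -0.19, -0.36 and -0.40. Itgav, a subunit of the receptors for fibronectin and vitronectin, was lower by -0.74, -0.84 and -0.71. In TGF-beta signalling, 3 of 14 were higher and 4 lower in WT, 6 and 4 in KO and 4 and 5 in CD-1 mice. Skil, a repressor of SMAD proteins, was lower by -1.37, -0.82 and -1.28, and the receptor gene Tgfbr1 by -1.09, -0.68 and -0.96. In TG mice none of these lists had a called gene, where 0% of all genes were called. Mean levels of the 9 fibroblast markers lay between 7.96 and 9.38 in CD-1 air mice and between 8.75 and 9.21 in CD-1 styrene mice, and their part in the differences was not tested.

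Timp1, the protease inhibitor, was the 1 gene of the set called higher in styrene. In CD-1 mice at 104 weeks the lowest, median and highest values were 5.08, 6.04 and 6.57 in air (n = 7) and 5.69, 6.47 and 9.15 in styrene (n = 10). The styrene mice lay mostly within the air range, with replicate 4, a mouse with a tumour note, far above it. The difference was 0.61 ± 0.24 (adjusted p = 0.0193, limma). It was not called without tumour-labelled mice (0.56, adjusted p = 0.0679), with CD-1 mice fitted apart (adjusted p = 0.0638), with the main axis (0.055) or Arntl (0.51) as covariate. Replicate 4 was not left out alone.

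CD-1 mice with a tumour note were also compared with those without one at 104 weeks, with dose as a term. No gene of the set was called, and 0% of all genes were. Timp1 differed by 0.54 (95% interval -0.23 to 1.32), Postn by -0.38 (-0.94 to 0.19) and Lox by 0.19 (-0.34 to 0.73).

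TG styrene mice at 78 weeks, all on plate 2, gave Lox values of 6.91, 5.76 and 5.91 against 7.47, 6.70, 7.59, 7.17 and 7.25 in air. Postn was 8.03, 6.18 and 6.86 against 9.03, 7.66, 8.90, 8.86 and 9.08. Both groups overlap by the highest styrene mouse alone. With the plate term the differences were -1.05 (adjusted p = 0.191) and -0.89 (adjusted p = 0.328), and without it -1.04 (adjusted p = 0.00827) and -1.68 (adjusted p = 0.000665). Timp1 in these mice differed by 0.40 with the term and 1.08 (limma, adjusted p = 0.0089) without it. All TG air arrays at 78 weeks were on plate 1, so dose and plate coincide in these mice.

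Fn1 and Sparc were not called in any of the 15 comparisons. Up to 78 weeks Fn1 differences ran from -0.36 in KO mice at 52 weeks to 0.50 in WT mice at 52 weeks (adjusted p = 0.11), and those of Sparc from -0.11 to 0.25. In KO mice at 52 weeks the Fn1 groups did not overlap, as in 1.71% of all genes, with an adjusted p of 0.854.

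The strains were compared in air to see how CYP2F2 status and background relate to these genes. CD-1 mice had more Fn1 and Lox signal than WT and KO mice, and CD-1 was not tested against TG mice. No gene of the set was called between the 3 C57BL/6 lines. Over 52 to 104 weeks, Fn1 in WT air mice had a lowest value of 9.48, a median of 9.87 and a highest of 10.34 (n = 11). In CD-1 air mice these were 9.83, 10.44 and 10.91 (n = 16). The ranges overlap, but the CD-1 median lay above the highest WT mouse. The weekly means differed by 0.47 ± 0.10 (adjusted p = 8.38e-05, limma), where 17.4% of all genes were called. Against KO mice over 26 to 104 weeks the difference was 0.46 (adjusted p = 2.85e-07), among 23.6% of genes called.

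Lox had 7.02, 7.56 and 8.16 as lowest, median and highest in WT air mice and 7.55, 7.93 and 9.51 in CD-1 air mice. The lowest CD-1 mouse stood at about the WT median, and the difference was 0.62 ± 0.19 (adjusted p = 0.0143, limma). The call was lost without replicate 1 of the WT air mice at 78 weeks (adjusted p = 0.0527) or without replicate 3 of the CD-1 air mice at 52 weeks (adjusted p = 0.0554). CD-1 minus KO was 0.66 (adjusted p = 0.000236). A probe set can read sequence differences between CD-1 and C57BL/6 as well as RNA amount, and this was not tested.

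Between C57BL/6 lines, the share of all genes called was 0.319% for KO minus WT, 0.503% for TG minus WT and 0.344% for TG minus KO, and none of the 7 genes was among them. For Spon2, TG minus WT was 0.40 (95% interval -0.07 to 0.87) and TG minus KO 0.43 (0.07 to 0.79, adjusted p = 0.8). The second Sparc probe set was higher in CD-1 than in KO mice by 0.31, while the first differed by 0.053, so the mean of both was called (0.18, adjusted p = 0.000665) and the brightest alone was not.

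Over all genes CD-1 minus WT called 17.4%, 1082 higher and 1650 lower, and nothing is read from the list counts beyond it. In the lists, CD-1 minus WT gave 1 higher and 5 lower of 17 elastic fibre genes, led by the microfibril genes Mfap2 (-0.89) and Mfap5 (-0.66). Of 13 collagens 5 were higher and 1 lower, among them Col3a1 (0.46). Of 12 integrins 3 were higher and 1 lower, with Itga9 at 1.33 and Itgb3 at -0.86. Mmp3, a stromal protease, was lower by -1.60 in CD-1 mice. The medians of the 6 matrix lists were at most 0.22, beside -0.01 over all genes.

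**Figure D4:**
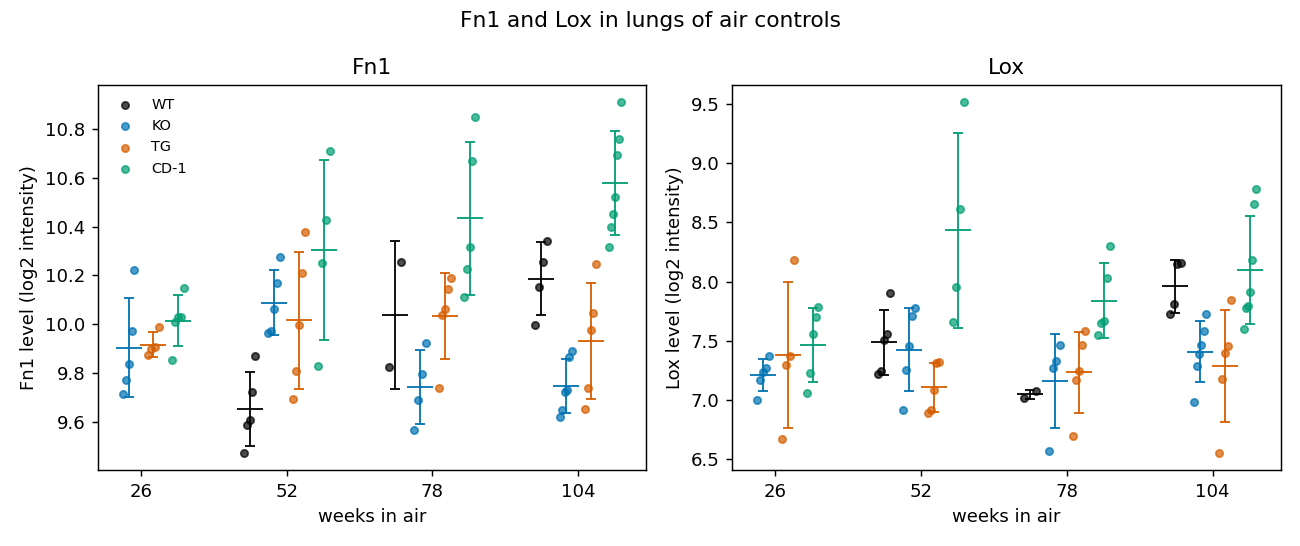
Fn1 (left) and Lox (right) in air controls of 4 strains at 26 to 104 weeks, in log2 intensity. Points are mice, dashes group means and bars SD; CD-1 mice have the highest means of both genes at 52, 78 and 104 weeks.

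Weeks were compared among air mice up to 78 weeks, which were almost all on plate 1 (replicate 3 of the CD-1 air mice at 52 weeks was on plate 2). Spon2 and Timp1 were lower at 78 than at 26 weeks in each of KO, TG and CD-1 mice. The mice were killed at different ages as well as after different exposures, so age and weeks in the chamber cannot be told apart.

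Spon2 in KO air mice was 7.42, 7.22, 7.36, 6.87 and 6.68 at 26 weeks and 6.33, 5.93, 6.16 and 4.59 at 78 weeks. In TG air mice it was 8.03, 7.34, 7.26 and 6.66 and then 6.09, 6.49, 6.07, 5.20 and 5.44. In CD-1 air mice it was 7.07, 7.32, 7.04, 6.89 and 7.28 and then 5.65, 4.61, 5.48, 5.72 and 4.50. In all 3 strains every mouse at 78 weeks was below every mouse at 26 weeks. The share of all genes whose groups do not overlap between weeks was not counted. The differences were -1.36 in KO (adjusted p = 0.00656), -1.46 in TG (adjusted p = 0.00393) and -1.93 in CD-1 mice (adjusted p = 3.04e-05, limma). The KO call was lost without replicate 4 of the 78-week mice (-0.97, adjusted p = 0.104).

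Averaged over these strains Spon2 fell by 1.58 from 26 to 78 weeks (adjusted p = 9.89e-10), in 2 steps. From 26 to 52 weeks it was -0.87 (adjusted p = 0.0147), which was not called without replicate 4 of the CD-1 air mice at 52 weeks (-0.75, adjusted p = 0.054). From 52 to 78 weeks it was -0.72 (adjusted p = 0.00589). Values at 52 weeks were widely spread, such as 7.31, 6.82, 4.90, 5.92 and 5.90 in KO mice. WT air mice, first measured at 52 weeks, had 7.12, 6.86, 6.63, 5.94 and 5.77 there and 5.08 and 5.44 at 78 weeks, a difference of -1.21 that was not called (adjusted p = 0.207).

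Arntl moved along with Spon2 here too. Its means in air were 7.08, 6.78 and 6.11 at 26, 52 and 78 weeks in KO mice, 6.95, 6.62 and 5.93 in TG mice and 7.06, 6.81 and 5.73 in CD-1 mice, and it differed by -1.11 over the 3 strains (adjusted p = 0.000181). With Arntl as a covariate Spon2 differed by -0.89 from 26 to 78 weeks and was still called (adjusted p = 8.81e-07). From 52 to 78 weeks it was then -0.18 (adjusted p = 0.344). Arntl was picked for its likeness to Spon2 and itself differed between these weeks, so the covariate takes up part of the week difference. Nothing is read from kept or lost calls with it, here or in the other week contrasts in air.

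Timp1 was lower at 78 weeks than at both earlier weeks. KO air mice had 6.69, 6.46, 6.88, 7.81 and 6.35 at 26 weeks, 6.37, 6.63, 7.86, 7.39 and 6.40 at 52 weeks and 6.64, 5.57, 5.79 and 5.51 at 78 weeks. TG air mice had 7.00, 7.00, 6.86 and 7.01, then 6.89, 6.75, 6.94, 7.08 and 8.54, then 5.70, 6.34, 5.92, 6.08 and 5.69. CD-1 air mice had 6.48, 6.91, 6.85, 6.99 and 6.64, then 6.14, 6.61, 7.28 and 6.25, then 5.61, 5.61, 5.88, 6.22 and 5.33. In TG and CD-1 mice no mouse at 78 weeks reached the 26-week range, and in KO mice 1 did. How many of all genes separate in this way was not counted.

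From 26 to 78 weeks Timp1 differed by -0.96 in KO (adjusted p = 0.0243), -1.02 in TG (adjusted p = 0.0176) and -1.04 in CD-1 mice (adjusted p = 0.00725, limma). The KO call was lost without replicate 4 at 26 weeks (adjusted p = 0.12) or without replicate 2 (0.0849), 3 (0.0595) or 4 (0.105) at 78 weeks. The 3 strains together gave -1.01 (adjusted p = 1.93e-06), with no difference called from 26 to 52 weeks (adjusted p = 0.993) and -1.01 from 52 to 78 weeks (adjusted p = 6.35e-06). With the main axis as covariate the 3 strains together kept the call (-0.74), while KO (-0.69, adjusted p = 0.133), TG (-0.78, 0.0726) and CD-1 mice alone (-0.76, 0.0611) lost it. Air means of the axis at 26 and 78 weeks were -0.015 and 1.1 in KO mice and 0.042 and 1.02 in TG mice. In CD-1 mice they were -0.125 and 1.01. The axis thus takes up part of the week difference, and nothing is read from kept or lost calls with it. Means at 104 weeks, on another plate, were 6.01 in KO, 5.82 in TG and 6.06 in CD-1 air mice, and they were not tested against earlier weeks.

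**Figure D5:**
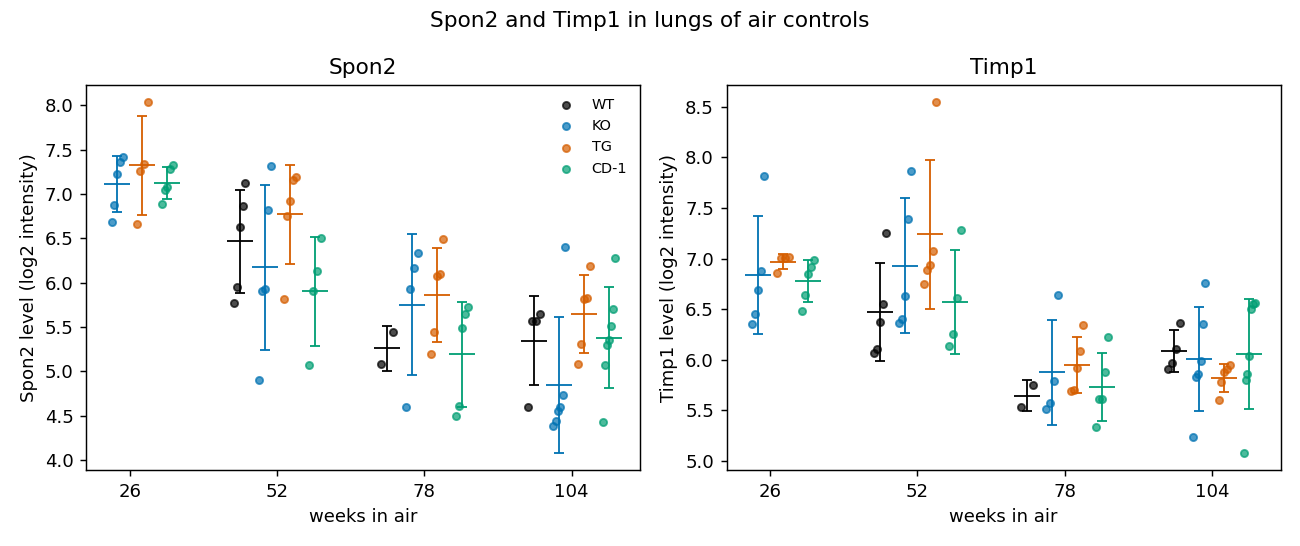
Spon2 (left) and Timp1 (right) in air controls of 4 strains at 26 to 104 weeks, in log2 intensity. Points are mice, dashes group means and bars SD; Spon2 means are lower at 52 and again at 78 weeks in KO, TG and CD-1 mice, and Timp1 means are lower at 78 weeks, while 104 weeks was run on another plate.

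These week contrasts also stand among many called genes. The share called from 26 to 78 weeks was 20.5% in KO, 18.3% in TG, 25.3% in CD-1 mice and 52.7% over the 3 strains. From 26 to 52 weeks it was 0.00637% in KO, 0.0319% in TG, 1.26% in CD-1 mice and 2.39% over the strains, and from 52 to 78 weeks 0.644% in WT mice and 37.6% over the strains. Among the 70 tests of the 7 genes 14 were called, 12 lower and 2 higher at the later week. The change from 26 to 78 weeks was compared between CD-1 and the mean of KO and TG mice, and no difference was called for the 7 genes, with 0.0191% of all genes called. For Spon2 that difference was -0.52 (95% interval -1.40 to 0.37).

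Eln was lower at 78 than at 26 weeks over the 3 strains by -0.34 (adjusted p = 0.0217, limma). Its air values in TG mice were 7.01, 6.74, 6.69 and 7.38 at 26 weeks and 6.59, 6.62, 6.89, 6.38 and 6.40 at 78 weeks, which overlap. The call was lost without replicate 4 of the TG air mice at 26 weeks (-0.29, adjusted p = 0.0568), with the main axis (-0.28, adjusted p = 0.0951) or with Arntl (-0.066, adjusted p = 0.671) as covariate. Postn was higher at 78 than at 52 weeks by 0.65 (adjusted p = 0.0131). Its KO air values were 8.13, 7.09, 7.99, 7.36 and 7.87 at 52 weeks and 6.80, 9.15, 8.44 and 9.59 at 78 weeks. It was not called without replicate 4 of the KO air mice at 78 weeks (0.53, adjusted p = 0.0544), and was -0.10 with the main axis as covariate. The axis was higher in air at 78 than at 26 or 52 weeks in KO, TG and CD-1 mice. It takes up part of the Eln and Postn week differences, and nothing is read from the values with it.

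Fn1 was higher at 78 than at 26 weeks in CD-1 air mice by 0.42 (adjusted p = 0.0273). The values were 9.86, 10.03, 10.01, 10.15 and 10.03, and then 10.31, 10.67, 10.85, 10.23 and 10.11. Only the lowest mouse at 78 weeks lay within the earlier range. The call was lost without replicate 1 at 26 weeks (adjusted p = 0.062) and without replicate 2 (0.0742) or 3 (0.142) at 78 weeks, with CD-1 mice fitted apart (0.0663), with arrays centred on their medians (0.0764) and with Arntl as covariate (0.0501). Sparc differed by -0.10 over the 3 strains and was called only under some settings, such as the mean of its probe sets (-0.21).

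The counts of other matrix genes from 26 to 78 weeks stand beside 52.7% of all genes called, 3270 higher and 5002 lower. Of 17 genes of elastic fibre assembly, 1 was higher and 9 lower over the 3 strains, with a list median of -0.22 beside -0.07 over all genes, and Mfap5 fell by 0.94, Fbn2 by 0.40 and Loxl1 by 0.35. None of 13 collagens was higher and 7 were lower, among them Col3a1 (-0.55) and Col1a1 (-0.47), with a median of -0.18. Smooth muscle and pericyte markers had 0 higher and 6 lower of 7, and their median was -0.41. The part of these cells in the Eln, Spon2 and Timp1 differences was not tested.

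Of 12 integrins 5 were higher and 0 lower, led by Itga4 (1.66), with a median of 0.12. Of 14 TGF-beta genes 7 were higher and 1 lower, with a median of 0.21, and the shares called in both lists lie near that of all genes. The receptor gene Tgfbr2 was higher by 0.36, while the ligand gene Tgfb3 was lower by -0.55. Matricellular genes were split, 4 higher and 6 lower of 19, and so were proteases and inhibitors, 5 and 6 of 17, with Mmp3 at -1.44 and the neutrophil collagenase Mmp8 at 1.15.

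Among styrene mice 52 and 26 weeks were compared; 78 weeks was not tested against them, since its KO, TG and most WT arrays lie on plate 2, although the 3 CD-1 arrays lie on plate 1. Averaged over the 4 strains Lox was higher at 52 weeks by 0.60 (adjusted p = 0.00243, limma). WT styrene values were 6.61, 6.80, 6.22, 7.23 and 7.13 at 26 weeks and 7.86, 7.67, 7.06, 7.15 and 7.38 at 52 weeks. CD-1 styrene values were 7.23, 5.85, 6.45, 7.22 and 6.94 and then 8.01, 6.91 and 8.75. Both overlap by their ends. With Arntl as a covariate the average was 0.40 (adjusted p = 0.0947).

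Eln and Spon2 were also higher at 52 weeks in this average, by 0.30 (adjusted p = 0.0394) and 0.48 (adjusted p = 0.046). Leaving out 1 array at a time ended the Eln call for 13 of 38 arrays, with adjusted p up to 0.0848 without replicate 2 of the CD-1 styrene mice at 52 weeks. It ended the Spon2 call for 23 of 38, with adjusted p up to 0.0874 without replicate 1 of the KO styrene mice at 52 weeks. With Arntl as a covariate they were -0.037 and -0.37, and with the mean of the probe sets 0.13 (adjusted p = 0.275) and 0.24 (adjusted p = 0.0893). The share of all genes called was 27.6% in the average.

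Within strains, Fn1 was higher at 52 weeks in WT styrene mice by 0.44 (adjusted p = 0.0415), and no other gene of the set was called. That call was lost without replicate 2, 3, 4 or 5 at 26 weeks or replicate 2, 4 or 5 at 52 weeks, with adjusted p up to 0.138. The share of all genes called was 9.98% in WT, 0.0127% in KO, 1.8% in TG and 1.71% in CD-1 mice. In the average over strains 27.6% of all genes were called. Of 14 genes of TGF-beta signalling 8 were higher and 0 lower there, led by Smad6 (0.46) and Eng (0.36), an inhibitory SMAD and an endothelial co-receptor. Of 17 elastic fibre genes 3 were higher and 2 lower, with Mfap5 at -0.61 and Ltbp2 at 0.39.

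Within groups the 7 genes did not move as one. Over 150 arrays, residuals from group means and plate correlated at 0.498 between Lox and Postn, at 0.435 between Eln and Spon2 and at -0.411 between Postn and Timp1. Each pair shares its arrays, RNA quality and tissue makeup, so these are descriptions of the libraries.

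The genes whose residuals were most like each member, by the highest Pearson r over the same arrays, were also different. For Eln they were Col4a1, a basement membrane collagen (0.541), Arntl (0.496) and Spaar (0.486). For Lox they were Fmnl2 (0.718), Nap1l1 (0.707) and Adgrl4, an endothelial adhesion receptor gene (0.705). For Fn1 they were the chemokine gene Ccl9 (0.439), Olfm1 (0.413) and Timd4, a receptor gene of resident macrophages (0.394).

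For Sparc they were Spock2, a testican proteoglycan gene (0.615), Col4a2 (0.613) and Krt7, an epithelial keratin gene (0.611). For Postn they were Mfap1a (0.893), Oxr1 (0.893) and Septin7 (0.892), and its r with the mean of 12 integrin genes was 0.758. For Timp1 they were Saa1, an acute phase gene (0.678), Nek6 (0.673) and the lysosomal protease gene Ctsb (0.671). Timp1 correlated at 0.631 with the mean of 10 macrophage markers and at -0.561 with that of 8 endothelial markers, and Sparc at -0.537 and 0.544. The part of these cell types in the differences of Timp1 and Sparc was not tested.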

How the data were processed

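RNA of whole lung from 150 mice, each a separate animal, was measured on 1 array per mouse. The authors deposited log2 intensities per probe set, made by RMA with Partek, per the submitters' processing notes; their versions are not given there. Arrays give no read depth, and their number limits the precision. Group, dose, week and replicate came from the labels, and plates from well labels. Genes came from the platform annotation (28898 probe sets with 1 gene, 551 with several left out), with symbols updated through GRCm38.p6.

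Genes above an array's 30th percentile (2.99 to 3.19) in at least 3 arrays were kept, and 1402 were removed. The means of 31 groups and a plate 2 term were fitted with limma 3.58.1 in R 4.3.3 (lmFit, eBayes, 118 residual degrees of freedom), with Benjamini-Hochberg adjustment over 15695 genes and a threshold of 0.05. The fit was tested on simulated data. The members and lists were chosen with earlier results of these data known. Named beside the members are up to 4 genes of each list with the smallest p in a comparison, the 3 genes with the most similar residuals, Cyp2f2 and the farthest array. Alternatives were other filters, probe set rule, separate fits, trend and robust eBayes, no plate term, the replicate block, no tumour-labelled mice and single arrays left out. Single arrays were left out of the smaller groups only. The larger groups were KO air, TG styrene, CD-1 air and CD-1 styrene mice at 104 weeks. Of these, only replicate 3 of the CD-1 air mice was left out singly. Added after seeing the data were arrays centred on their medians, the main axis or Arntl as covariate, arrays of open plate or the farthest array left out, and contrasts between strains within a week. Replicate numbers did not pair the animals: in 1 of 15 comparisons (TG at 26 weeks) every pair of the same number correlated above 0.1.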

Additional observations from a re-analysis of the deposited data

Results flagged for a closer look

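The 7 genes were checked in groups of 4 to 10 mice, and the genes of a group share its mice. Of 189 pairs of gene and group, 15 had a mouse apart from the rest by Dixon's criterion, beside 9.45 if chance gives 1 in 20. Timp1 had 6 of them. It was highest at 9.15 (next value 6.99) in replicate 4 of the CD-1 styrene mice at 104 weeks, which carries a tumour note, at 8.54 (next 7.08) in replicate 5 of the TG air mice at 52 weeks, at 7.33 (next 6.13) in replicate 4 of the WT styrene mice at 78 weeks and at 6.54 in replicate 3 of the TG styrene mice at 104 weeks. It was lowest at 5.96 in replicate 2 of the WT styrene mice at 104 weeks and at 6.86 in replicate 3 of the TG air mice at 26 weeks.

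Eln was lowest at 6.23 in replicate 4 of the WT air mice at 52 weeks and at 6.04 in replicate 2 of the KO styrene mice at 104 weeks, and highest at 7.71 in replicate 5 of the CD-1 styrene mice at 104 weeks, which carries a tumour note. Lox was lowest at 5.81 (next 7.03) in replicate 5 of the KO styrene mice at 78 weeks. Fn1 was highest at 10.09 in replicate 4 of the TG styrene mice at 26 weeks and lowest at 9.31 (next 9.98) in replicate 5 of the TG styrene mice at 52 weeks.

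Spon2 was lowest at 4.60 in replicate 2 of the WT air mice at 104 weeks and highest at 6.40 (next 4.73) in replicate 4 of the KO air mice at 104 weeks. Postn was lowest at 7.66 (next 8.86) in replicate 2 of the TG air mice at 78 weeks.

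The styrene effect at 104 weeks differed between strains by the test in the model. For Lox it was -2.34 for WT minus TG, -1.61 for KO minus TG and 1.79 for TG minus CD-1, and for Postn 1.32 for TG minus CD-1. Dose and plate coincide in each of these groups, apart from 2 KO and 2 TG styrene arrays whose plate is 3 or 4.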

How the results depend on the processing

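Of the called tests, the Fn1 differences of CD-1 from WT and KO mice and the Lox difference of CD-1 from KO mice in air were called under every alternative run, as were, in air, Spon2 and Timp1 from 26 to 78 weeks over the 3 strains, Timp1 from 52 to 78 weeks over them, and Spon2 from 26 to 78 weeks in CD-1 and in TG mice. Of 105 tests of styrene against air, 9 were called; other settings gave 2 to 12 and single arrays left out 8 to 10, with 2 under the main-axis covariate. Averages to 78 weeks gave 1, and 0 with Arntl as covariate, with C57BL/6 and CD-1 fitted separately or with the mean of probe sets, and 0 to 3 without single arrays. Weeks in styrene gave 4, and 2 with Arntl, 1 with arrays centred and 2 with the mean of probe sets, with 1 to 6 without single arrays. Weeks in air gave 14 (12 to 18, and 11 to 16 without single arrays) and strains in air 4 (4 to 5, and 3 to 4). Counts of 5 sets of contrasts that span both stocks were not run as separate fits.

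Signs turned with Arntl as covariate for Eln (-0.037) and Spon2 (-0.37) in the styrene average of 52 minus 26 weeks, for Spon2 in WT styrene mice (-0.93), and for Spon2 at 104 weeks in WT (0.98) and CD-1 mice (0.55). With the main axis they turned for Postn at 104 weeks in WT (0.60), KO (0.41) and CD-1 mice (0.26), for its WT minus TG (1.03) and TG minus CD-1 (-0.69) effects, and in air for Postn from 26 to 78 weeks in CD-1 mice (-0.51) and over 3 strains (-0.36), for Postn from 52 to 78 weeks (-0.10) and for Lox from 26 to 78 weeks (-0.40). The cause was not tested. With the replicate block no call was lost, and Lox from 26 to 52 weeks in CD-1 styrene mice was called (1.21, adjusted p = 0.0286). Genes near the filter level are compressed by background, which limits the dimmer Spon2 and Lox probe sets.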
